A study of Mus musculus with 60 samples.

Results

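The genes described here encode 8 surface molecules through which macrophages show that they are activated and signal to T cells: Cd40, Cd80, Cd86, Icosl, Cd274, Cd69, Cd83 and Cd44. They were taken by gene symbol, and every probe annotated to them was followed through all treatment and genotype groups of the study. They have 25 of the 45281 probes on the array and are 8 of the 19057 genes that its probes name. Of the 25 probes, 15 were tested in the first macrophage experiment, 17 in the second and 15 in the artery, the rest falling short of a detection filter (p under 0.01 on 3 or more arrays of the experiment). Cd40 has 5 probes, Cd44 9, Cd86 3, Cd80, Cd69 and Icosl 2 each, and Cd274 and Cd83 1 each. Where a gene has several, the probe with the highest mean signal in that experiment stands for it below.

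The study asked how high-density lipoprotein (HDL), the lipoprotein that carries cholesterol back to the liver, acts on inflammatory gene expression in macrophages and in injured arteries, and what part the transcription factor ATF3 plays. Bone marrow cells of C57BL/6 mice aged 6 to 8 weeks were grown into macrophages with M-CSF (40 ng/ml) for 6 days. In the first experiment, wild-type macrophages were left untreated, given CpG DNA (100 nM, 4 h), given HDL (2 mg/ml) or given HDL for 6 h and then CpG. The second experiment added P3C (50 ng/ml, 4 h), with and without HDL, and ran all 6 treatments in wild-type macrophages and in macrophages whose genotype label is ATF3-/-. A stimulation period of 10 h is stated for all macrophage groups. CpG DNA is a ligand of TLR9, and P3C, which the labels do not spell out, is known from the study as a lipopeptide ligand of TLR2. The third experiment used common carotid arteries of wild-type and ATF3-/- labelled C57BL/6 males of about 12 weeks, denuded by electric current, with 1 injection of HDL (20 mg/kg) or of PBS 3 h after the injury and a stated stimulation period of 12 h. All 20 groups hold 3 arrays. Whether these are separate cultures or animals is not stated in the labels, so p-values measure the spread between these arrays, which may be technical, and the labels give no detail of the deleted allele.

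T cells need a second signal beside antigen. CD80 and CD86 on the presenting cell give it through CD28 on the T cell, ICOS ligand gives a related signal through ICOS, and PD-L1, the product of Cd274, restrains T cells through PD-1. CD40 works in the other direction: it is the macrophage's receptor for CD40 ligand on helper T cells and signals through TRAF adaptors to NF-kB. CD69 is an early marker of leukocyte activation that holds back the S1P receptor, CD83 stabilises CD86 and MHC class II at the surface, and CD44 binds hyaluronan in the matrix.

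Values are log2 signals after normexp background correction and quantile normalisation within each experiment, so levels are not set against each other between experiments, and a log2 difference of 1 is a 2-fold change. A gene rose or fell where limma's test, adjusted over all probes of the comparison, gave an adjusted p under 0.05. The share of probes detected was 27.0% to 33.8% per array in the first experiment, 26.4% to 32.7% in the second and 20.5% to 34.0% in the artery. Of 7 macrophage markers with a probe, 6 or 7 were detected on every macrophage array. Of 8 dendritic-cell markers, Siglech was detected on 3 of 12 arrays of the first experiment and Ccr7 on 5 of 36 of the second, and of 7 T-cell markers, Cd2 on 1 of 12 and Cd4 on 1 of 36, with the rest (Flt3, Zbtb46 and Cd3e among them) on none. Of 5 B-cell markers, Cd79b was detected on 7 of 12 and 24 of 36 arrays and Ebf1 on 6 of 12 and 5 of 36, and Ms4a1, Pax5 and Blk on none. The Atf3 probe was higher in the cells labelled Atf3-deficient than in wild-type cells (12.68 ± 0.28 against 11.20 ± 0.08 untreated, SD, n = 3, adjusted p = 1.52e-07). Whether that probe lies in the deleted part is not given, so it does not check the label, and these cells are called by their label throughout. Erdr1, a transcript that separated the labels on all 36 macrophage arrays of the second experiment (10.8 to 12.0 in wild-type, 4.31 to 4.98 in labelled cells), was in the artery at the level of the other label on 1 wild-type PBS array (4.48) and 1 labelled HDL array (10.33), which are replicate 3 of their groups. Wild-type artery HDL replicates 1 and 3 had the lowest shares of detected probes, and wild-type artery differences are given with and without these arrays.

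In untreated macrophages, Cd44 and Cd83 had the brightest probes of the 8 genes and Icosl and Cd80 lay at or close to background, although levels of different probes are not comparable as amounts. Within the second experiment the 8 genes formed groups by their pattern over the 12 group means. Cd40, Cd69, Cd274 and Icosl moved together, with Pearson correlations of 0.86 to 0.96 between pairs. Cd86 followed Cd83 (r = 0.84), with r = -0.08 against Cd40 and -0.01 against Cd69. Cd44 ran with Cd274 (r = 0.88), within the range of those pairs, and with Cd40, Cd69 and Icosl at 0.78, 0.71 and 0.65. Cd80 correlated with no other member above 0.54. These are descriptions over 12 points that share arrays and normalisation.

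**Figure D1:**
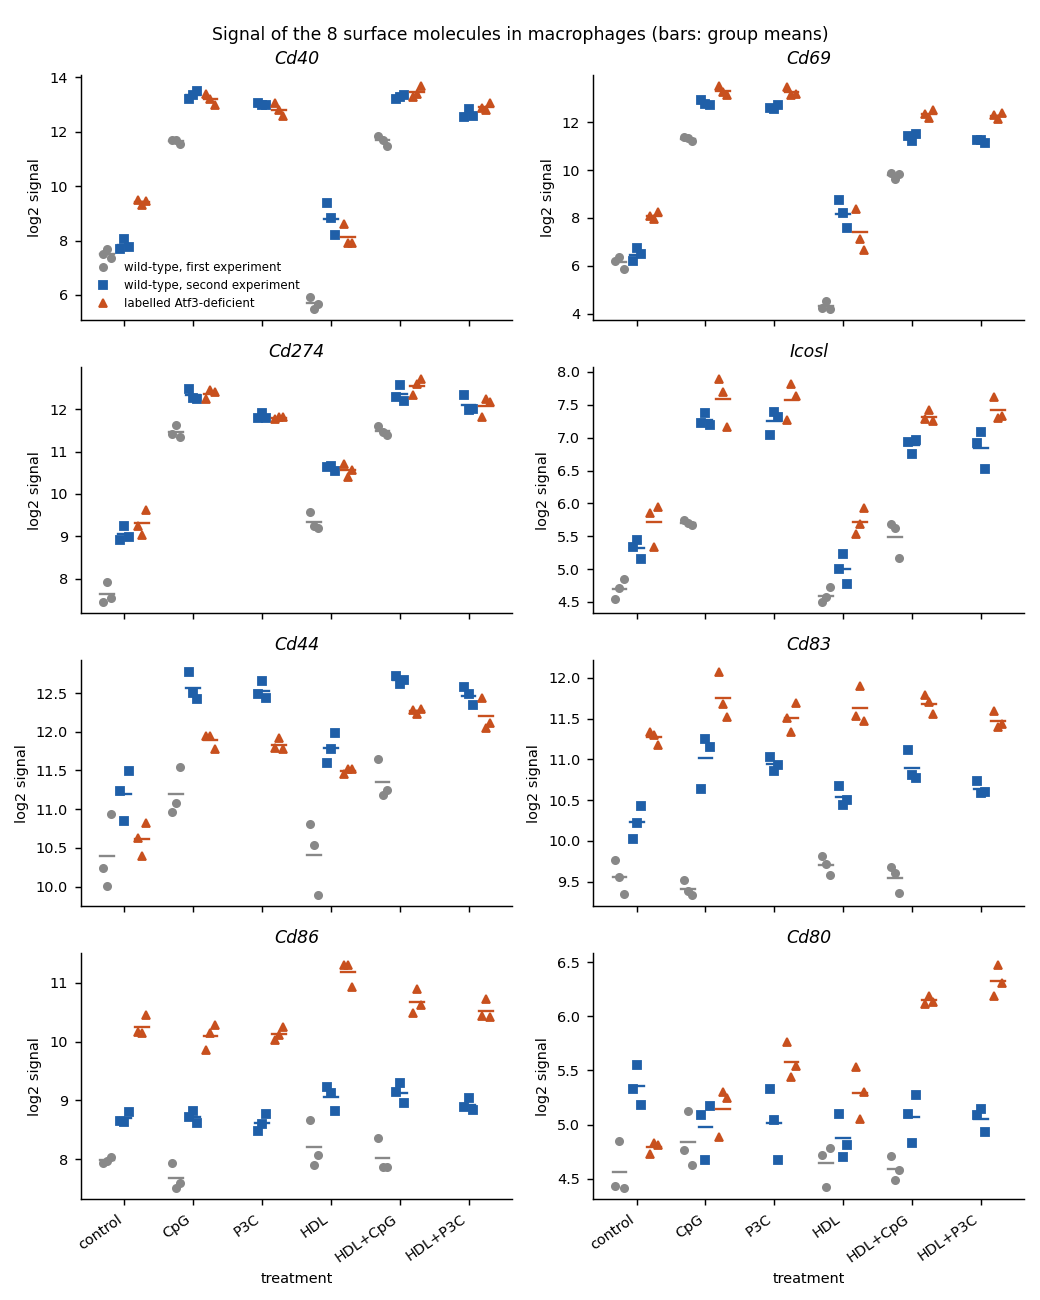
Log2 signal of the main probe of each gene (vertical axis, a separate range per panel) by treatment, with 1 point per array and a bar at the mean of 3. Grey circles are the first wild-type experiment, blue squares wild-type and orange triangles Atf3-deficient labelled cells of the second, and the 2 experiments were normalised separately. Cd40, Cd69, Cd274 and Icosl stand high in every group with CpG or P3C, while Cd86 separates the genotype labels in every treatment.

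Both TLR ligands raised Cd40, Cd69, Cd274 and Icosl in every macrophage set that received them. Cd69 rose most, 35.5-fold to 79.4-fold, followed by Cd40 with 10.5-fold to 45.6-fold and Cd274 with 5.59-fold to 14.2-fold. Icosl rose 3.64-fold to 3.87-fold in the second experiment and 2.01-fold in the first, where 1 of 3 control arrays was detected. Cd86, the B7 ligand that was well detected, passed no test of a ligand against control with its main probe.

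Cd40, the receptor for T-cell help, lies on chromosome 2 (GRCm38.p6, 165055614 to 165071654). Its log2 signal read 7.50, 7.69 and 7.34 in control cells of the first experiment and 11.71, 11.70 and 11.55 after CpG. The groups lay far apart and did not overlap, with a difference of 4.14 ± 0.17 (SE, adjusted p = 1.33e-08). Wild-type cells of the second experiment gave 7.69, 8.07 and 7.77 untreated, 13.21, 13.36 and 13.48 after CpG and 13.06, 12.99 and 12.99 after P3C. Both ligand groups stood clear of control, by 5.51 ± 0.20 (adjusted p = 3.07e-19) for CpG and 5.17 ± 0.20 (adjusted p = 1.52e-18) for P3C. Control cells labelled Atf3-deficient gave 9.49, 9.32 and 9.44, those with CpG 13.40, 13.19 and 12.97, and those with P3C 13.07, 12.81 and 12.56. The ligand groups again did not overlap control, and the rises were 3.77 ± 0.20 and 3.40 ± 0.20. A pair of further Cd40 probes rose with CpG as well, by 4.35 and 3.34 in the first experiment and by 5.33 and 4.61 in wild-type cells of the second.

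Cd69 on chromosome 6 (129267324 to 129275375) had the widest range. Control cells of the first experiment gave 6.21, 6.38 and 5.88, and CpG cells 11.36, 11.34 and 11.21. That gap, 5.15 ± 0.17 (adjusted p = 3.91e-09), was more than the full range of any group. Wild-type control cells of the second experiment gave 6.20, 6.74 and 6.48, CpG cells 12.90, 12.74 and 12.71 and P3C cells 12.57, 12.54 and 12.73. CpG and P3C groups overlapped each other and both lay above control by over 5 log2 units on every array, with differences of 6.31 ± 0.26 and 6.14 ± 0.26. In cells labelled Atf3-deficient the control values were 8.08, 7.95 and 8.26 and the CpG values 13.51, 13.23 and 13.12, a rise of 5.19 ± 0.26 without overlap.

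Cd274 encodes PD-L1, and its gene spans chromosome 19, 29362107 to 29388095. Its RefSeq promoter window is shown with that of Icosl because both genes rose with either ligand. A window holds 250 bases before and 50 after the start that the RefSeq table (GRCm38.p6) gives, which for Cd274 lies inside the annotated gene, and capitals mark a motif match. The windows are chr19:29367188-29367487 and chr10:78069118-78069417, both on the plus strand.
Cd274: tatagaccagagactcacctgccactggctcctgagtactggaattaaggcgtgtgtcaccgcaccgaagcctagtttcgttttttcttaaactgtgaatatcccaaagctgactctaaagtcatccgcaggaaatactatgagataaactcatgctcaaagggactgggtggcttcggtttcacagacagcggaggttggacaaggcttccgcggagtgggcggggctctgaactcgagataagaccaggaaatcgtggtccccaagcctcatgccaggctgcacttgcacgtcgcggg
Icosl: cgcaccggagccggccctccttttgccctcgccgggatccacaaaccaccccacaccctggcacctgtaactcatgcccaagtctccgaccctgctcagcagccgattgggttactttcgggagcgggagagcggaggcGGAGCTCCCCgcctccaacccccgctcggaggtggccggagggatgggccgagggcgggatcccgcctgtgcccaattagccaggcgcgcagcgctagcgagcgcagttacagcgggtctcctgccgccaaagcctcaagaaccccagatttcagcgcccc
The capitals in Icosl match the NF-kB decamer consensus on the opposite strand, at bases -111 to -102 from the start. The Cd274 window matched none of the motifs searched on both strands: the NF-kB decamer, the AP-1 heptamer TGANTCA, the CRE half-site TGACG, the ISRE core TTTCNNTTTC and the GAS motif TTCNNNGAA. Among 32851 RefSeq windows of that length, 8.46% hold the NF-kB decamer, 7.81% the AP-1 heptamer, 20.8% the CRE half-site, 3.44% the ISRE core and 8.3% the GAS motif. A match is a run of letters in the window and no measurement of binding. Windows were found for 4 of the 8 genes, Cd80, Cd274, Icosl and Cd44, and that of Cd44 held no match either.

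The Cd274 probe gave 7.45, 7.92 and 7.54 in control cells of the first experiment and 11.41, 11.64 and 11.34 after CpG. The groups did not overlap, and the rise was 3.83 ± 0.17 (adjusted p = 3.04e-08). Second-experiment wild-type values were 8.92, 9.24 and 8.99 untreated, 12.47, 12.27 and 12.24 with CpG, and 11.79, 11.90 and 11.78 with P3C. All CpG arrays were above all P3C arrays, but that difference of 0.50 ± 0.15 did not pass the test (adjusted p = 0.166). In cells labelled Atf3-deficient, where CpG gave 12.24, 12.44 and 12.39 and P3C gave 11.76, 11.81 and 11.80, the difference of 0.57 ± 0.15 passed narrowly (adjusted p = 0.0472), and leaving out any of the 6 arrays ended that call. It was the 1 call in the direct comparison of the ligands. In labelled cells 1.19% of probes passed (0.801% higher with CpG, 0.388% lower). In wild-type cells 0.497% of probes passed (0.425% and 0.0728%) and 0 members. There 1 member and 2132 of the 16487 probes had an unadjusted p under 0.05.

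Icosl on chromosome 10 (78069368 to 78079525) was faint at rest. Control values of 4.54, 4.71 and 4.86 in the first experiment were detected on 1 array, and CpG values of 5.75, 5.70 and 5.68 on all 3. These groups did not overlap and differed by 1.01 ± 0.17 (adjusted p = 0.000795). In the second experiment's wild-type cells it went from 5.34, 5.44 and 5.16 to 7.22, 7.37 and 7.20 with CpG and 7.05, 7.39 and 7.31 with P3C. Both ligand groups stood above control with no overlap, by 1.95 ± 0.18 and 1.94 ± 0.18, and the 2 ligands differed by 0.01 (95% confidence interval -0.36 to 0.39).

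Cd44 and Cd83 rose less, and their main probes did not pass in every experiment. The Cd44 probe gave 11.23, 10.84 and 11.49 in wild-type control cells of the second experiment, 12.78, 12.50 and 12.43 with CpG and 12.49, 12.66 and 12.44 with P3C. Neither ligand group overlapped control, and the rises were 1.38 ± 0.14 (adjusted p = 1.82e-09) and 1.34 ± 0.14. In the first experiment the same probe gave 10.23, 10.01 and 10.94 against 10.97, 11.08 and 11.54 with CpG. There the 3 CpG arrays were the higher ones by a small margin, and the difference of 0.80 ± 0.29 missed the threshold (adjusted p = 0.0575). With the chip as a term it passed (adjusted p = 0.0043). Another Cd44 probe, detected on all 6 of these arrays, rose by 0.90. A further probe detected on all 6 gave 5.49, 5.51 and 8.13 in control and 6.46, 6.45 and 8.85 with CpG, groups that overlapped. The arrays at 8.13 and 8.85 shared a chip, and the rest shared another. Within each chip the CpG arrays were higher. In the second experiment Cd83 rose with CpG by 0.79 ± 0.16 in wild-type cells and by 0.49 ± 0.16 in labelled cells (not with median scaling or without labelled CpG replicate 1), and gave -0.14 ± 0.16 (adjusted p = 0.547) in the first.

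Cd86, on chromosome 16 (36568956 to 36666158), gave 8.66, 8.63 and 8.80 in wild-type control cells of the second experiment, 8.72, 8.83 and 8.62 with CpG and 8.48, 8.59 and 8.77 with P3C. These groups overlapped, and the CpG difference was 0.03 (95% confidence interval -0.27 to 0.32). In the first experiment it was -0.30 ± 0.22 (adjusted p = 0.335). Of its 2 other probes, 1 rose with P3C in wild-type cells by 0.46 (adjusted p = 0.0355).

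Cd80 on the same chromosome (38457430 to 38495958) did not reach the detection filter with its main probe in the first experiment. In the second, it was detected on all 3 wild-type control arrays and on 0 of the wild-type CpG or P3C arrays, with differences of -0.37 ± 0.17 (adjusted p = 0.0673) and -0.34 ± 0.17 (adjusted p = 0.1). In cells labelled Atf3-deficient it was not above background in control (4.73, 4.83 and 4.81) and reached 5.76, 5.44 and 5.54 with P3C, detected on 2 arrays. All P3C arrays lay above all control arrays, a rise of at least 1.28-fold (adjusted p = 0.000255) that did not pass with median scaling. An at-least fold sets the bright group against the lowest signal that counts as detected on each dim array, or the probe's own signal where that is higher. The mean of the bright group includes any array not detected. The adjusted p beside such a fold tests the fitted difference and not the at-least fold.

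Counted over genes, CpG raised 4 of the 7 tested in the first experiment and lowered 0, where 28.0% of 15917 probes passed, 12.2% higher and 15.7% lower. In the second experiment's wild-type cells 6 of 8 rose and 0 fell with CpG (45.7% of 16487 probes passed, 20.3% higher and 25.4% lower) and the same numbers applied to P3C (44.3%, 20.5% higher and 23.8% lower). In labelled cells 6 of 8 rose with CpG (46.4%, 20.5% higher and 25.9% lower) and 6 with P3C (44.0%, 20.2% higher and 23.7% lower), and 0 fell. The members' median difference was 1.01 in the first experiment against -0.04 over all probes, and 1.66 and 1.64 in wild-type cells of the second against -0.05 and -0.03. The summed signal of 7 neutrophil markers was also higher after ligand, for example 8.89 to 9.08 with CpG against 7.85 to 8.17 in wild-type control cells of the second experiment, with Mpo, Elane, Ngp and Retnlg detected on no array. Those of 6 endothelial and 5 B-cell markers were lower in the same comparison (7.95 to 8.06 against 8.49 to 8.68, and 7.11 to 7.23 against 7.38 to 7.41). Of the endothelial markers, Vwf alone was detected on all 36 arrays of the second experiment. The part of these marker transcripts in the result was not tested. In RNA from bulk cells or tissue, fewer cells of a type and less RNA per cell cannot be told apart.

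Other genes of these pathways moved in both directions with CpG, as did the array as a whole. In the second experiment's wild-type cells, 20.3% of all probes rose and 25.4% fell. Of 20 tested other ligands of the T-cell costimulatory and co-inhibitory system, 8 rose and 5 fell in the second experiment's wild-type cells (median 0.26 against -0.05 over all probes), among them Icam1 (an adhesion ligand of LFA-1, 2.32), Slamf7 (2.30) and Tnfsf9 (4-1BB ligand), which was above background with CpG and not in control cells. Of 15 genes of CD40 signalling, 10 rose and 2 fell (median 0.57), led by Tnfaip3 (the NF-kB inhibitor A20, 3.92), Traf1 (3.45) and Birc3 (2.24). Of 9 partners of CD44 and hyaluronan, 4 rose and 2 fell (median 0.56), including the CD44-cleaving protease Mmp14 (3.56), Mmp9 (2.14) and the hyaluronan synthase Has1, not above background in control cells. Of 19 other activation surface molecules, 10 rose and 4 fell (median 0.60), with Clec4e (4.88), Fas (3.71) and Tnfrsf1b (2.10) in front. In the same cells Cd28, the receptor for CD80 and CD86, fell from detection on all 3 control arrays to detection on 0 of 3.

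HDL alone moved the same genes in different directions in the 2 wild-type experiments. Cd274 rose each time, by 1.70 ± 0.17, 1.56 ± 0.15 and, in labelled cells, 1.25 ± 0.15. Cd40 and Cd69 fell in the first experiment and rose in wild-type cells of the second. In labelled cells Cd40 fell, while Cd69 gave -0.70 ± 0.26 without passing. Cd44 rose in both sets of the second experiment, and Cd86 rose in labelled cells.

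Cd274 gave 9.58, 9.23 and 9.19 with HDL in the first experiment, against the 3 control values below 8. In the second it gave 10.63, 10.65 and 10.54 in wild-type cells and 10.71, 10.41 and 10.56 in labelled cells, whose control values were 9.25, 9.04 and 9.63. Every HDL array lay above every control array of its set, with adjusted p of 0.000142, 3.95e-09 and 1.28e-07. The level with HDL alone stayed below that with either ligand on every array.

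Cd40 with HDL was 5.93, 5.47 and 5.68 in the first experiment, below each control array, and the fall was 1.82 on the log2 scale (SE 0.17, adjusted p = 7.21e-05). In the second experiment's wild-type cells it was 9.37, 8.83 and 8.19, above each control array, a rise of 0.96 ± 0.20 (adjusted p = 0.00115) that did not pass with median scaling and was 1.69 within the 1 chip that held both groups. In labelled cells it was 8.60, 7.91 and 7.91, below each control array, and the change was -1.27 ± 0.20 (adjusted p = 2.04e-05). In labelled cells 2 further probes fell too, by -1.20 and -0.87, the latter detected on 2 of 3 HDL arrays. In the first experiment the same probes were near background with HDL: 1, detected on 1 of 3 HDL arrays, gave -1.19, and the other, detected on 0 of 3, was at least 1.62-fold lower. In the second experiment's wild-type cells neither passed (0.63 with adjusted p = 0.168, and 0.46 with adjusted p = 0.16).

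Cd69 with HDL was 4.26, 4.54 and 4.19 in the first experiment and not above background on any of these arrays, where the control arrays were all detected. The fall was at least 2.66-fold (adjusted p = 6.96e-05). In the second experiment's wild-type cells HDL gave 8.74, 8.22 and 7.59, each above the control arrays, and the rise was 1.71 ± 0.26 (adjusted p = 1.69e-05). In labelled cells HDL gave 8.37, 7.14 and 6.68, a group spread over more than 1 log2 unit that overlapped control (adjusted p = 0.0578). The direction of Cd40 and Cd69 thus differed between wild-type experiments that were normalised separately, and this difference was not tested.

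**Figure D2:**
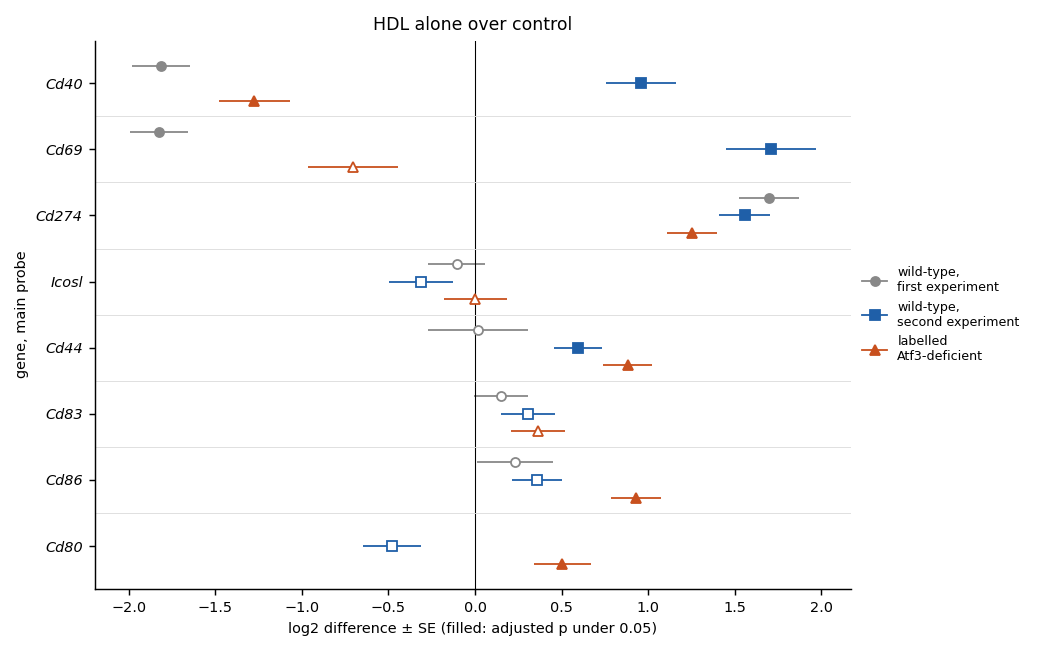
Log2 difference of HDL alone over control for the main probe of each gene (horizontal axis, bars ± SE of the fit, 3 arrays per group). Grey circles are the first wild-type experiment, blue squares and orange triangles the wild-type and Atf3-deficient labelled cells of the second, and filled symbols passed the test. Cd274 lies right of 0 in all 3 sets, whereas Cd40 and Cd69 lie at about -1.8 in the first experiment and right of 0 in wild-type cells of the second.

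Cd86 rose with HDL in labelled cells from 10.16, 10.15 and 10.45 to 11.31, 11.31 and 10.93, without overlap and by 0.93 ± 0.14 (adjusted p = 1.49e-05), and its 2 other probes rose by 0.89 and 0.65. In wild-type cells the main probe gave 9.22, 9.13 and 8.81 with HDL, above each control array, with a difference of 0.36 ± 0.14 that did not pass (adjusted p = 0.121), while another probe rose by 0.67 (adjusted p = 0.00279). Cd44 rose by 0.59 ± 0.14 in wild-type and 0.88 ± 0.14 in labelled cells and gave 0.01 ± 0.29 in the first experiment. In wild-type cells that rise was lost with median scaling and without control replicate 2.

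By count, HDL alone raised 1 and lowered 2 of the 7 tested genes in the first experiment (5.54% of probes passed, 2.43% higher and 3.11% lower). It raised 4 and lowered 0 of 8 in wild-type cells of the second (11.7% passed, 6.32% higher and 5.38% lower) and raised 4 and lowered 1 in labelled cells (18.8% passed, 10.3% higher, 8.51% lower). The fourth rise in labelled cells was that of Cd80 (5.54, 5.05 and 5.30, detected on 1 array), whose size is not read, and it was lost in 9 of 13 other settings. The summed signal of 6 endothelial markers was higher with HDL too (9.37 to 9.61 against 8.49 to 8.68 in wild-type cells, 9.02 to 9.09 against 7.92 to 8.10 in labelled cells), with Cdh5, Kdr and Tie1 detected on no array. Among the 36 arrays of the second experiment, Vwf was detected on all, Pecam1 on 11 and Tek on 1. That of 5 smooth muscle markers was 10.51 to 10.82 with HDL against 9.44 to 9.98 in labelled control cells, and 9.10 to 9.34 against 8.71 to 8.88 in wild-type cells, with Myh11, Cnn1 and Tagln never detected. The B-cell sum was lower with HDL (7.07 to 7.14 against 7.38 to 7.41 in wild-type, 7.30 to 7.52 against 7.69 to 7.80 in labelled cells). The part of these transcripts in the result was not tested.

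Among the other lists, the hyaluronidase Hyal1 rose with HDL alone in all 3 sets, from detection on 0 or 1 of 3 control arrays to all 3 HDL arrays, as did Hyal2 (0.92, 0.95 and 0.86) and the IL-7 receptor gene Il7r (2.05, 1.03 and 2.30). Map3k14, the kinase NIK of the alternative NF-kB branch below CD40, fell in all 3 (-0.80, -0.70 and -0.60). Of the 15 genes of CD40 signalling, 1 rose and 1 fell in the first experiment, 2 rose and 1 fell in wild-type cells of the second and 2 rose and 2 fell in labelled cells, with medians of -0.02, 0.09 and -0.04 against -0.01, -0.01 and 0.00 over all probes. Of all probes, 2.43%, 6.32% and 10.3% rose in these sets and 3.11%, 5.38% and 8.51% fell.

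When HDL preceded the ligand, Cd69 was the member that fell in all 5 comparisons with the ligand alone. Its fall was 2.89-fold in the first experiment, 2.66-fold and 2.65-fold in wild-type cells of the second, and 1.95-fold and 1.99-fold in labelled cells. Cd40 and Cd274, which had also risen with the ligands, passed none of the 5 tests with their main probes. Cd86 and Cd80 rose in some sets.

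With HDL before CpG, Cd69 was 9.88, 9.61 and 9.85 in the first experiment, every array below the CpG arrays (-1.53 ± 0.17, adjusted p = 0.000189). Wild-type cells of the second experiment gave 11.41, 11.22 and 11.49 with HDL and CpG, and 11.25, 11.26 and 11.12 with HDL and P3C. Both groups lay below the ligand-alone arrays, by -1.41 ± 0.26 each (adjusted p = 0.000182 and 0.000196). Labelled cells gave 12.32, 12.16 and 12.48 with HDL and CpG, and 12.31, 12.11 and 12.36 with HDL and P3C. These groups too lay below the ligand alone without overlap (-0.97 ± 0.26, adjusted p = 0.00909, and -0.99 ± 0.26, adjusted p = 0.00784), and they remained above the wild-type groups of the same treatment. With the chip as a term the 5 changes were -1.35, -1.16, -1.29, -1.22 and -1.11, and all passed. Median scaling ended both calls in labelled cells, and leaving out labelled CpG replicate 1 ended the one for CpG. Within chips that held both groups they ranged from -0.82 to -1.49. The endothelial marker sum was higher with HDL before the ligand in all 5 comparisons, for example 8.38 to 8.69 against 7.95 to 8.06 for CpG in the second experiment's wild-type cells. Of its 6 markers, Vwf alone was detected on all 36 arrays of that experiment. The part of this sum in the result was not tested.

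Cd40 was 11.85, 11.71 and 11.48 with HDL and CpG in the first experiment, overlapping the CpG arrays (difference 0.03, 95% confidence interval -0.34 to 0.39). In wild-type cells of the second it was 13.21, 13.29 and 13.36 with HDL and CpG (-0.07, interval -0.48 to 0.35) and 12.53, 12.82 and 12.58 with HDL and P3C. The latter arrays were all below those with P3C alone, but -0.37 ± 0.20 did not pass (adjusted p = 0.256), although another Cd40 probe fell by 0.62 (adjusted p = 0.0333). Cd274 overlapped with and without HDL under CpG, with differences of 0.02 (interval -0.36 to 0.40) and 0.02 (interval -0.28 to 0.32) in the wild-type sets.

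Cd80 was above background on all arrays of labelled cells given HDL and a ligand, with 6.12, 6.19 and 6.13 for CpG and 6.19, 6.48 and 6.31 for P3C. With CpG alone these cells gave 4.88, 5.30 and 5.25 and were not above background, so the rise was at least 1.61-fold (adjusted p = 4.52e-05). With P3C alone 2 arrays were detected, and the rise was 0.75 ± 0.17 (adjusted p = 0.00175). In wild-type cells Cd80 was not above background in any ligand group, with or without HDL. Its promoter window (chr16:38458683-38458982, plus strand, start inside the annotated gene) is printed because Cd80 was the member detected in these groups of labelled cells and in 0 of the matching wild-type arrays.
Cd80: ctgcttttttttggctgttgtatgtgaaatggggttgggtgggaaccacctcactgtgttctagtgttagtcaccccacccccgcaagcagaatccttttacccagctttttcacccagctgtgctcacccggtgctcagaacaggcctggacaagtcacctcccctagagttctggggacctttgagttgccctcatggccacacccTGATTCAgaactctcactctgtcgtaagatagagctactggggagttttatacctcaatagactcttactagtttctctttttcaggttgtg
The capitals match the AP-1 heptamer at bases -42 to -36, which reads the same on either strand and counts as 1 site, and the window held no other motif of those searched.

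Cd86 rose by 0.58 ± 0.14 with HDL before CpG in labelled cells (adjusted p = 0.00505), from 9.86, 10.14 and 10.28 to 10.49, 10.90 and 10.62, groups that did not overlap, though it was lost with median scaling and without HDL and CpG replicate 2. The wild-type rise of 0.41 ± 0.14 (adjusted p = 0.047) did not pass with the chip as a term (0.39, adjusted p = 0.16). The other differences of Cd86 were 0.35 ± 0.22, 0.31 ± 0.14 and 0.39 ± 0.14, none of which passed. Icosl, Cd83 and Cd44 passed none of the 5 comparisons with their main probes.

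**Figure D3:**
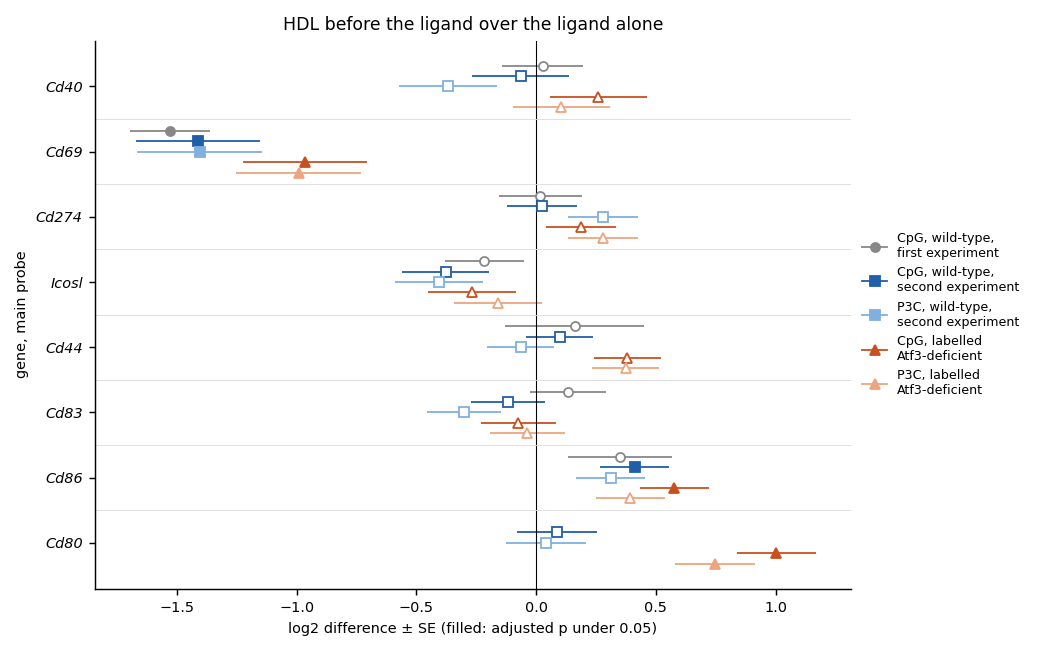
Log2 difference of HDL before the ligand over the ligand alone for the main probe of each gene (horizontal axis, bars ± SE, 3 arrays per group). Grey is the first wild-type experiment, blue shades wild-type and orange shades Atf3-deficient labelled cells of the second, dark for CpG and light for P3C, and filled symbols passed the test. All 5 Cd69 symbols are filled and left of -0.9, and the Cd80 symbols of labelled cells are filled on the right.

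Counts per comparison were 1 lower of 7 in the first experiment (6.99% of probes passed, 3.68% higher and 3.32% lower). In wild-type cells of the second they were 1 higher and 1 lower of 8 for CpG (17.6%, 8.59% and 8.96%) and 1 lower for P3C (14.9%, 7.82% and 7.10%). Labelled cells gave 2 higher and 1 lower for CpG (15.7%, 8.56% and 7.10%) and 1 higher and 1 lower for P3C (14.7%, 7.75% and 6.98%). Of the other lists, Mmp9 fell in the 3 wild-type comparisons (-0.92, -1.06 and -1.33) and Il7r rose in all 5 (1.98 to 2.79). Of the 15 genes of CD40 signalling, 1 to 3 rose and 0 or 1 fell in each of the 5 comparisons. Nectin2 and Lgals9, from the list of costimulatory and co-inhibitory ligands, fell with HDL before P3C in both cell sets (Nectin2 -0.96 and -0.70, Lgals9 -1.32 and -0.99).

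HDL also moved the starting level, so the response to the ligand was tested as a difference of differences. Cd274 responded less after HDL in all 5 tests, by -1.68 ± 0.25 in the first experiment (adjusted p = 0.0118, 0.616% of probes passed, 0.433% higher and 0.182% lower), -1.53 ± 0.21 for CpG (3.23%, 1.46% and 1.77%) and -1.28 ± 0.21 for P3C (2.86%, 1.45% and 1.41%) in wild-type cells of the second, and -1.07 ± 0.21 (3.61%, 2.23% and 1.38%) and -0.97 ± 0.21 (3.50%, 1.90% and 1.60%) in labelled cells. Its level with HDL alone was higher in each set, and its level with HDL and ligand was about that of the ligand alone. For Cd40 the sign differed: the response was larger after HDL in the first experiment (1.84 ± 0.24, adjusted p = 0.00585) and in labelled cells (1.53 ± 0.29 and 1.38 ± 0.29), where HDL alone had lowered it, and smaller in wild-type cells of the second (-1.02 ± 0.29, adjusted p = 0.0429, and -1.33 ± 0.29, adjusted p = 0.00623), where HDL alone had raised it. The first of these wild-type values was lost in 12 of 19 other settings, and median scaling ended all the Cd40 and Cd274 calls in this test for the second experiment except that of Cd274 for CpG in wild-type cells. Cd69 responded less in the second experiment's wild-type cells, by -3.12 ± 0.37 with either ligand (adjusted p = 3.69e-06 and 3.47e-06), while labelled cells gave -0.26 ± 0.37 for CpG (adjusted p = 0.84) and -0.29 ± 0.37 for P3C (adjusted p = 0.776). The first experiment gave 0.30 ± 0.24 (adjusted p = 0.9), a value that rests on an HDL group below background, and without the normexp correction it was -0.79. Members that passed in these 5 comparisons numbered 2 of 7 and then 3, 3, 2 and 2 of 8.

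Between the genotype labels, Cd86 differed throughout. Its main probe was higher in cells labelled Atf3-deficient than in wild-type cells in all 6 treatments, by 2.59-fold to 4.37-fold, and no array of 1 label overlapped the other within a treatment. Cd83 was higher in the labelled cells in all 6 as well, by 1.48-fold to 2.14-fold. Untreated labelled cells also had more Cd40 and Cd69 and less Cd44 signal. Cd80 was lower in untreated labelled cells and higher under P3C and under HDL with either ligand.

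The Cd86 difference was 1.56 ± 0.14 in control cells (adjusted p = 2.58e-09), 1.37 ± 0.14 with CpG, 1.52 ± 0.14 with P3C, 2.13 ± 0.14 with HDL (adjusted p = 1.02e-11), 1.54 ± 0.14 with HDL and CpG and 1.60 ± 0.14 with HDL and P3C. Its 2 other probes gave 1.38 to 2.03 and passed in all 6. Within chips that held both labels for a treatment, which none did for P3C or for HDL alone, the main probe gave 1.04 to 1.81. Cd83, which protects CD86 from degradation, lies on chromosome 13 (43785112 to 43803133) and gave 10.03, 10.22 and 10.43 in wild-type and 11.33, 11.30 and 11.18 in labelled control cells. These groups were a full log2 unit apart (1.04 ± 0.16, adjusted p = 1.27e-05), and the other treatments gave 0.57 to 1.10. With median scaling in place of quantile normalisation, Cd83 passed in none of the 6 treatments, with the direction unchanged, while Cd86 passed in all 6. The Cd83 call with P3C was also lost without wild-type P3C replicate 2 or labelled P3C replicate 3.

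Marker lists of other cell types also differed between the labels, in both directions. The summed signal of 5 fibroblast markers was 9.01 to 10.03 over the 18 labelled arrays and 7.61 to 8.49 over the 18 wild-type arrays, with Dcn and Col1a1 detected and Pdgfra and Lum on no array. That of 5 smooth muscle markers was 9.41 to 10.82 against 8.60 to 9.53, carried by Acta2, with Myh11, Cnn1 and Tagln never detected. In control cells the neutrophil sum was 7.32 to 7.40 labelled against 7.85 to 8.17 wild-type, the endothelial sum 7.92 to 8.10 against 8.49 to 8.68 and the B-cell sum 7.69 to 7.80 against 7.38 to 7.41. The first experiment's arrays, all wild-type and normalised separately, gave a fibroblast sum of 9.81 to 10.67, a level not comparable with these. Over the 36 arrays the probe most like Cd86 was Acta2 (r = 0.95), followed by Serpinf1 and C2, and those most like Cd83 were Timp1 (r = 0.91), Aebp1 and Timp3. The part of these transcripts in the Cd86 and Cd83 differences was not tested.

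**Figure D4:**
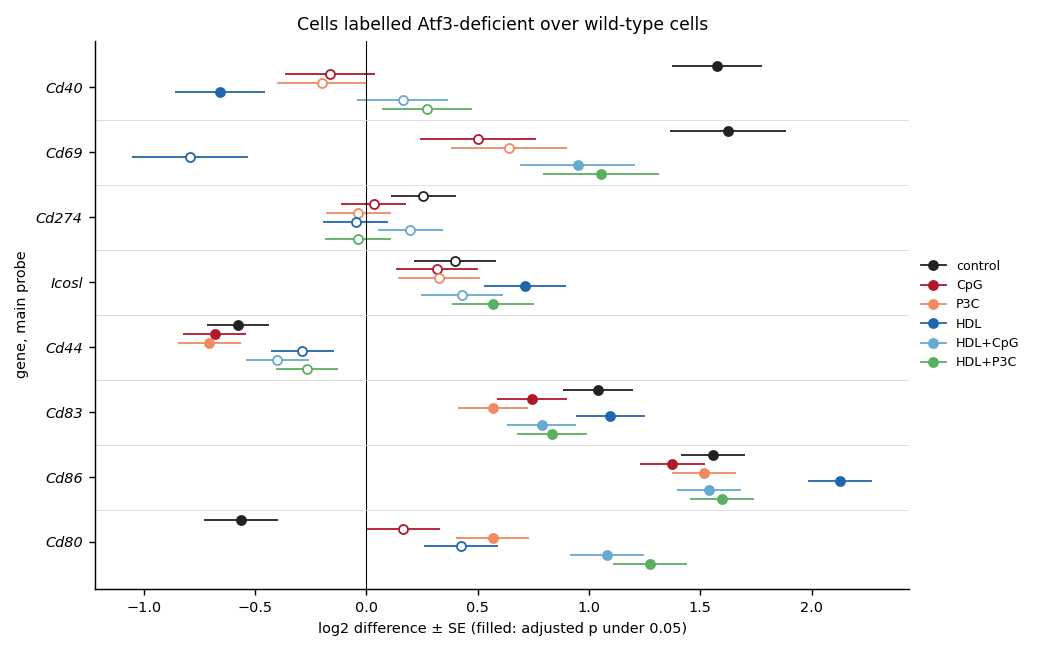
Log2 difference of cells labelled Atf3-deficient over wild-type cells for the main probe of each gene in each of the 6 treatments of the second experiment (horizontal axis, bars ± SE, 3 arrays per group, filled symbols passed the test). Cd86 and Cd83 lie right of 0 in all 6 treatments, and Cd40 and Cd69 do so in control cells and not with HDL alone.

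Untreated labelled cells had Cd40 values between 9.32 and 9.49, all above the wild-type values of 7.69 to 8.07 (1.57 ± 0.20, adjusted p = 1.03e-06). Cd69 was 7.95 to 8.26 against 6.20 to 6.74, again without overlap (1.62 ± 0.26, adjusted p = 3.61e-05). With CpG or P3C alone neither gene differed by label past the threshold (Cd40 -0.16 and -0.20, Cd69 0.50 and 0.64). Under HDL with a ligand Cd69 was higher in labelled cells, by 0.95 ± 0.26 for CpG (adjusted p = 0.0152) and 1.05 ± 0.26 for P3C (adjusted p = 0.00593), the former not with the chip as a term (0.70, adjusted p = 0.152) or without wild-type replicate 2 or labelled replicate 3, and neither with median scaling. With HDL alone Cd40 was lower in labelled cells by -0.66 ± 0.20 (adjusted p = 0.0398), in groups that overlapped, and the call was lost in 7 of 13 other settings. Cd44 was lower in labelled cells when untreated (10.63, 10.40 and 10.82 against 11.23, 10.84 and 11.49, which just failed to overlap), with CpG and with P3C, by -0.58 ± 0.14, -0.68 ± 0.14 and -0.71 ± 0.14. The untreated difference was lost with median scaling and without labelled control replicate 2 or wild-type control replicate 3.

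Cd80 was higher in labelled cells by at least 1.75-fold under HDL with CpG (adjusted p = 2.65e-05) and at least 2.06-fold under HDL with P3C (adjusted p = 1.98e-06), where wild-type cells were not above background. The calls in control cells (at least 1.09-fold lower) and with P3C (at least 1.17-fold higher) were lost in 7 and 8 of 13 other settings. Icosl was higher under HDL, at least 1.48-fold, and under HDL with P3C by 0.57 ± 0.18 (adjusted p = 0.0382), calls lost in 5 and 7 of 13 other settings. Cd274 passed in none of the 6 treatments, with differences of -0.05 to 0.26.

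By count, labelled over wild-type cells gave 4 higher and 2 lower of 8 in control (10.7% of probes passed, 5.26% higher and 5.40% lower), 2 and 1 with CpG (19.2%, 8.40% and 10.8%) and 3 and 1 with P3C (10.1%, 4.74% and 5.36%). The counts were 3 and 1 with HDL (8.18%, 3.82% and 4.35%), 4 and 0 with HDL and CpG (10.0%, 4.66% and 5.34%) and 5 and 0 with HDL and P3C (12.0%, 5.61% and 6.44%). In the lists, Lgals9 was higher in labelled control cells (1.55), Slamf1 (1.82, detected on 1 of 3 wild-type arrays) and Tnfsf9 (1.27) with CpG, and the NF-kB adaptor gene Ikbkg was lower in all 6 treatments (-0.77 to -1.08), as was Il7r (-1.22 to -2.49). Of the 15 genes of CD40 signalling, 0 rose and 1 fell in control cells.

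The labels also differed in how 3 genes responded. The Cd40 response to CpG was smaller in labelled cells by -1.74 ± 0.29 (adjusted p = 0.000532, 1.95% of probes passed, 0.685% higher and 1.26% lower, and 1 of 8 members). That to P3C was smaller by -1.77 ± 0.29 (adjusted p = 0.000368, 1.51% of probes, 0.528% and 0.983%, and 2 of 8 members). The other member was Cd80, which was not above background in labelled control cells or in wild-type cells given P3C, so its size is not read. The response to HDL alone differed for Cd40 (-2.23 ± 0.29, adjusted p = 3.36e-05) and Cd69 (-2.41 ± 0.37, adjusted p = 0.000279), 2 of the 3 members that passed where 0.873% of probes did (0.164% higher, 0.710% lower). The remaining call was that of Cd80 (adjusted p = 0.0309), again on groups at or near background, and it was lost in 14 of 19 other settings. These 3 sets of differences subtract the same control arrays, on which Cd40 was 1.57 and Cd69 1.62 higher in labelled cells, whereas the Cd40 levels with CpG and with P3C differed between labels by -0.16 and -0.20. No chip held all the groups of any of these 3 tests. With median scaling the Cd40 response to HDL alone still differed by label, and the other calls of these 3 genes did not pass. The effect of HDL on cells given CpG or P3C did not differ by label for any member past the threshold. Of all probes 0.249% passed for CpG (0.146% higher and 0.103% lower) and 0.230% for P3C (0.115% in each direction). An unadjusted p under 0.05 was found for 1 and 2 members, and for 1686 and 1167 of the 16487 probes. For Cd69 these differences were 0.45 (95% confidence interval -0.31 to 1.20) and 0.41 (interval -0.34 to 1.17).

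The genes whose probes ran most like the ligand-induced members over the 36 arrays of the second experiment were Tnf, Il4i1 and Phlda1 for Cd40 (r = 0.99 each), Dusp2, Plagl2 and Klf7 for Cd69 (0.98 each) and Il1rn, Il1b and Eif1a for Cd274 (0.98, 0.97 and 0.96). For Icosl they were Denr, Cdkn1a and Arhgef3 (0.96 each) and for Cd44 Tshz1, Vmp1 and Tnfrsf1b (0.94, 0.93 and 0.92). For Cd80, near background in most groups, the highest was Pcdha6 with 0.78.

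In the injured carotid artery, no member passed in any of the 5 comparisons, and neither did any of the 15868 probes tested by limma (0% called in each). All 8 genes had a higher mean after HDL than after PBS in wild-type arteries. These means come from the same arrays, and the share of all probes with a higher mean was not counted. Where groups did not overlap, this is given for single genes below, as the share of all probes without overlap was not counted. Cd69 showed the widest gap, with 5.84, 5.73 and 5.07 after PBS and 7.42, 7.63 and 9.27 after HDL. The lowest HDL array was above the highest PBS array, and the difference was 2.56 ± 0.52 (adjusted p = 0.191).

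Cd40 gave 5.24, 6.33 and 5.52 after PBS and 7.47, 6.47 and 9.28 after HDL. The groups nearly met, and the difference was 2.04 ± 0.63 (adjusted p = 0.191). Cd274 gave 7.86, 9.35 and 7.77 after PBS and 10.13, 9.81 and 10.94 after HDL, again without overlap (1.97 ± 0.51, adjusted p = 0.191). Cd80, Icosl and Cd44 also did not overlap, with 1.11 ± 0.44, 0.78 ± 0.31 and 1.07 ± 0.41, while Cd86 (0.98 ± 0.79) and Cd83 (1.58 ± 0.76) did. These gaps hold after normalisation. Before it, the Cd80 signal was 137.1, 180.4 and 123.5 after HDL against 167.0, 166.2 and 142.4 after PBS. That of Cd40 was 136.9, 178.2 and 317.4 against 148.9, 187.6 and 147.6. Both genes overlapped there, in signals not adjusted for differences between arrays. Adjusted p for the 8 genes ran from 0.191 to 0.43, and 6 of them, as well as 3568 of all probes, had an unadjusted p under 0.05. The median difference of the 8 was 1.35 against -0.09 over all probes. Within the 2 chips the difference was 2.23 and 1.95 for Cd40, 1.59 and 3.05 for Cd69 and 2.27 and 1.81 for Cd274, but 3.09 and -0.08 for Cd86 and 3.74 and 0.50 for Cd83. With median scaling 6124 probes passed and in the deposited matrix 6574, of which 0 were main probes of members.

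**Figure D5:**
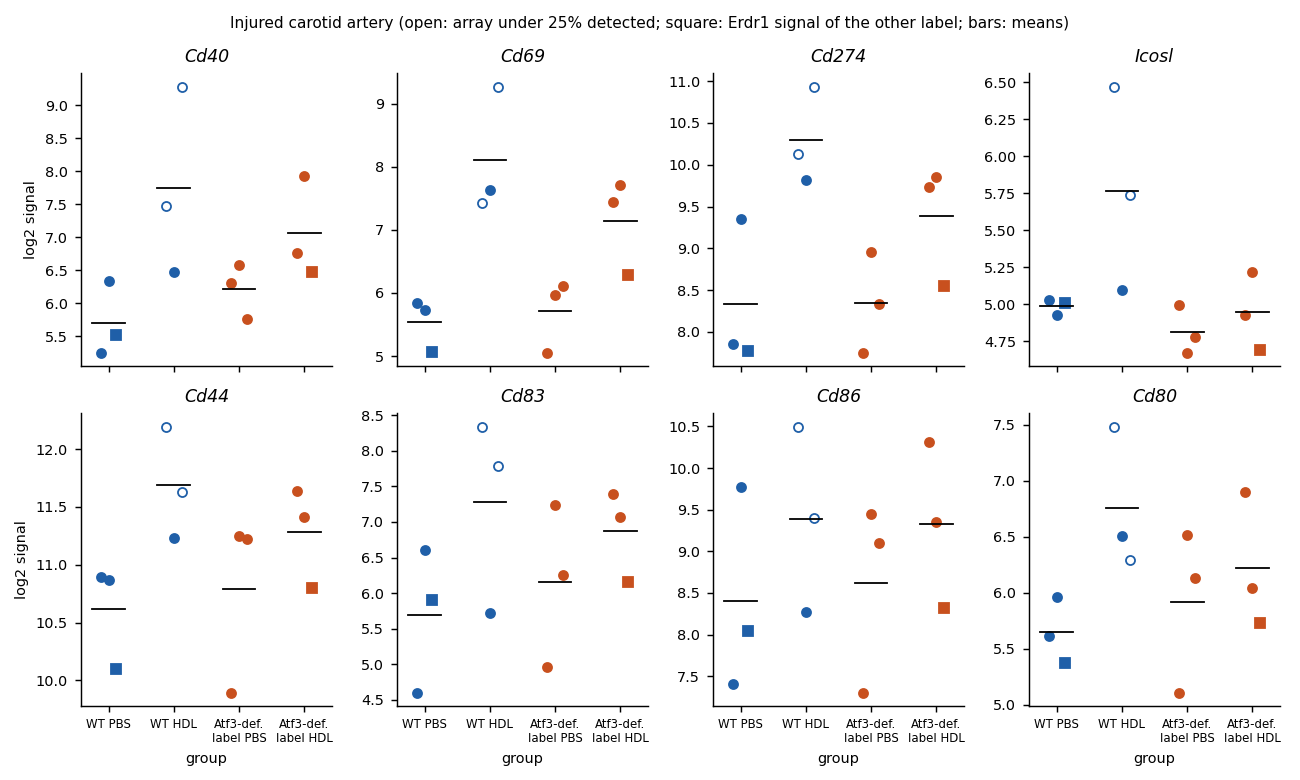
Log2 signal of the main probe of each gene (vertical axis) in injured carotid arteries by genotype label and injection, with 1 point per array and a bar at the mean of 3. Open symbols mark the 2 wild-type HDL arrays with under 25% of probes detected, and squares the 2 arrays whose Erdr1 level went against their label. Cd69, Cd40 and Cd274 are higher on all 3 wild-type HDL arrays than on the wild-type PBS arrays, and the spread within groups is wide.

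Marker sums of 7 cell types are given for the same arrays, and in all of them the HDL and PBS ranges overlapped. The summed signal of 7 macrophage markers was 13.10 to 14.18 after HDL and 11.90 to 13.17 after PBS in wild-type arteries, that of 7 T-cell markers 7.94 to 10.97 against 7.30 to 8.91 (Cd5, Cd8a and Cd4 never detected), that of 5 fibroblast markers 9.09 to 12.60 against 12.21 to 13.35 and that of 5 smooth muscle markers 12.09 to 15.12 against 14.39 to 15.51. Endothelial markers gave 9.54 to 11.01 against 10.65 to 11.90, neutrophil markers 11.39 to 14.09 against 11.47 to 13.59 and adipocyte markers 7.18 to 8.82 against 6.61 to 12.48. The part of these transcripts in the result was not tested. Wild-type HDL replicates 1 and 3 had 20.5% and 24.5% of probes detected, the lowest of the 12 arrays. Without both, the values were 2.08 for Cd69, 1.49 for Cd274, 0.77 for Cd40 and -0.14 for Cd86, and 0 members passed. Without wild-type HDL replicate 2, which leaves those 2 arrays, 5 members passed (Cd69 2.80, Cd40 2.68, Cd83 2.36, Cd274 2.21 and Icosl 1.11), along with 3804 of all probes.

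In arteries labelled Atf3-deficient, Cd69 gave 5.05, 5.97 and 6.11 after PBS and 7.44, 7.71 and 6.29 after HDL, and Cd274 7.75, 8.95 and 8.34 against 9.74, 9.86 and 8.55. The Cd69 groups did not overlap, and those of the other members did. The differences were 1.43 ± 0.52 and 1.04 ± 0.51, neither of which passed, and 1 member and 238 probes had an unadjusted p under 0.05. The labels differed in the HDL response by -1.13 for Cd69 (95% confidence interval -2.75 to 0.50), an interval that includes 0. Between labels, 0 members had an unadjusted p under 0.05 after PBS (103 probes did), 1 after HDL (1256 probes) and 0 in the difference of responses (753 probes). Without the 2 arrays whose Erdr1 level went against their label, wild-type differences were 2.32 for Cd69, 1.69 for Cd274 and 1.95 for Cd40, and 0 members passed. Both arrays had the lowest Cd69 value of their group, 6.29 in labelled arteries after HDL and 5.07 in wild-type arteries after PBS. Both thus enter the label difference of -1.13. Without them 0 members passed for the labelled HDL response or for the label difference, whose sizes are not given here.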

How the data were processed

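Biotin-labelled total RNA was measured on Illumina mouse bead arrays in 3 experiments of 12, 36 and 12 arrays. The authors deposited non-normalised tables that give, per the file headers, a mean bead signal intensity per probe and its detection p-value on every array. They also deposited a matrix of processed values, used as an alternative, whose ranks matched the signal tables (lowest Spearman correlation per array 0.99998). The authors deposited the macrophage part of it with medians of 96.5 and 113.9, read as linear signal, and the artery part with medians of 6.72 to 6.96, read as log2 values; how it was normalised is not given in the sources used here. The submitters' processing notes name Partek.

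Each experiment was processed alone with limma 3.58.1 in R 4.3.3: normexp correction from the detection p-values with an offset of 16, quantile normalisation and log2 (neqc). Tested probes reached a detection p under 0.01 on 3 or more arrays (15917, 16487 and 15868). A linear model on group means was fitted to all arrays of an experiment (8, 24 and 8 residual degrees of freedom), with eBayes and Benjamini-Hochberg adjustment over all tested probes of a comparison, a threshold of 0.05 and 95% confidence intervals. Differences are log2 differences with the standard error of the fit, and the number of arrays limits their precision. Of 45281 probes, 34885 have 1 symbol, 18 several and 10378 none in the platform annotation, and 34807 symbols were updated through identifiers. Main probes, lists and the rule for named genes (the 3 largest passing differences per list, the 3 most correlated genes) were set by rule, but the members and lists were chosen with earlier results of these data known. Within groups, arrays correlated at 0.924 to 0.993, 0.942 to 0.995 and 0.818 to 0.965, and 0 columns were identical. Chips held up to 6 arrays, and each held several groups. In labelled cells, no chip held control arrays together with CpG, P3C or HDL arrays. The same applied to labelled against wild-type cells given P3C or HDL alone. These differences therefore compare arrays on different chips. The chip was tested as a fixed and as a random term (correlation 0.391, 0.0944 and -0.038). The fit was tested on simulated data. Alternatives were no normexp, median scaling, the deposited matrix, no detection filter, the chip, 1 probe per gene and leaving out arrays. Promoter windows come from RefSeq (GRCm38.p6). Figures were drawn with matplotlib 3.10.9.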

Additional observations from a re-analysis of the deposited data

Results flagged for a closer look

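The Cd40 response differed between the genotype labels under 3 treatments, by -1.74 log2 for CpG, -1.77 for P3C and -2.23 for HDL alone (labelled Atf3-deficient minus wild-type, each tested as a difference of responses). The 3 differences subtract the same control arrays, where Cd40 was 1.57 higher in labelled cells, and are not independent of each other. The Cd40 levels with CpG and with P3C themselves differed by -0.16 and -0.20. For Cd80 the P3C response differed by 1.13 and the HDL response by 0.98, but 2 of the 4 groups behind the first were not above background, and behind the second 1 was not and 2 were detected on 1 array each, so the sizes are fitted values and no bounds. The Cd69 response to HDL alone differed by -2.41, against control arrays on which it was 1.62 higher in labelled cells.

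Cd40 and Cd69 moved in opposite directions with HDL alone in the 2 wild-type experiments. Cd40 gave -1.82 in the first and 0.96 in the second, and Cd69 gave -1.83 (its HDL arrays not above background) and 1.71, with every HDL array on that side of every control array. The experiments were normalised separately, and this difference was not tested.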

How the results depend on the processing

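No paired analysis was possible because the replicate numbers follow the order of the samples and pair nothing. Over 284 differences of main probes, 94 passed, and 57 of these passed under every alternative that was run; 37 were lost in at least 1, in 123 of 1330 runs. Of the 190 others, 20 passed somewhere. Median scaling ended 36 calls, the chip as a fixed term 6, testing undetected probes too 7, no normexp correction and the deposited matrix 5 each, the chip as a random term 1 and 1 probe per gene 0. The cause was not tested. The direction of Cd69 turned in the change of the CpG response by HDL in the first experiment, from 0.30 to -0.79 without normexp and -0.81 in the deposited matrix.

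Counts of members passed changed as follows. Without normexp, and in the deposited matrix, HDL before P3C in labelled cells gave 4 in place of 2 (2522 and 2524 of all probes, in place of 2429). With median scaling, wild-type cells gave 2 in place of 4 for HDL alone, 1 in place of 2 for HDL before CpG and 1 in place of 3 for the change of the P3C response by HDL. Labelled cells then gave 0 in place of 1 for CpG over P3C, 1 in place of 3 for HDL before CpG, 1 in place of 2 for HDL before P3C and 0 in place of 2 for the change of either ligand response by HDL. Labelled over wild-type cells gave 2 in place of 4 with P3C, 1 in place of 4 with HDL, 2 in place of 4 with HDL and CpG and 2 in place of 5 with HDL and P3C. The differences of response between labels gave 0 in place of 1 for CpG, 0 in place of 2 for P3C and 1 in place of 3 for HDL. Over all probes, fewer passed too in each comparison named here for median scaling. For HDL alone in wild-type cells the number was 674 in place of 1929, and for the change of the P3C response there 86 in place of 472. For CpG over P3C in labelled cells it was 22 in place of 196, and for the label difference in HDL response 21 in place of 144. With undetected probes tested too, HDL before CpG in wild-type cells gave 1 and CpG over P3C in labelled cells 0. Of all 45281 probes, 2493 and 187 passed in these. With the chip as a fixed or a random term, HDL before CpG in wild-type cells gave 1 (2177 and 2896 of all probes, in place of 2894).

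Leaving out 1 array at a time gave 1 to 2 for HDL before CpG in wild-type cells, 0 in every run for CpG over P3C in labelled cells, 2 to 4 and 2 to 5 for labelled over wild-type cells with P3C and with HDL, 0 to 1 for the label difference in HDL before CpG, 0 to 5 for HDL in wild-type arteries and 0 to 1 for labelled over wild-type arteries after HDL. Other counts stayed within 1.5 times. Leaving out the arrays by Erdr1 was chosen after seeing the data. Signals near background limit Cd80 and Icosl, and 3 arrays per group with wide spread limit the artery.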
